A study of Mus musculus with 6 samples.

Results

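The clustered protocadherin genes lie in a single array on mouse chromosome 18, and the openness of their promoters was read here in nuclei of the newborn heart. Members were the protein-coding GENCODE M21 genes on this chromosome whose symbols begin with Pcdha, Pcdhb, Pcdhga, Pcdhgb or Pcdhgc and end in a number. The rule gave 57 gene entries, with 56 distinct symbols, of 21938 protein-coding entries in all, and it used no measured value. They comprised 12 alpha genes, 22 beta genes, 12 gamma A genes, 6 gamma B genes and 5 C-type genes, the last being Pcdhac1, Pcdhac2, Pcdhgc3, Pcdhgc4 and Pcdhgc5. Pcdha11 is the symbol of 2 of the alpha entries. All 57 lie on the plus strand, and neighbouring transcription start sites (TSSs) are at least 4131 bp apart, so no peak was shared by a pair of members.

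Clustered protocadherins are cell surface adhesion proteins of the cadherin family, best known from neurons, where a few promoters are chosen in each cell and the resulting mix of proteins lets a neuron tell its own branches from those of others. Each alpha and gamma gene has its own promoter and its own long variable exon, which is spliced to a small set of constant exons shared by its cluster, whereas the beta genes have no constant exons. The insulator protein CTCF and the cohesin complex loop distant enhancers to the chosen promoters, and DNA methylation keeps many of the others silent. The C-type genes stand at the ends of the alpha and gamma arrays and in neurons are used more evenly from cell to cell than the rest.

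Chromatin was profiled by Omni-ATAC-Seq, which reads accessible DNA through cuts made by a transposase, with 50000 nuclei per library from mouse hearts at postnatal day 1 and 2 biological replicates in each of 3 groups. All nuclei were first purified on a 2.2 M sucrose cushion. The paper reports that this cushion yields nearly pure cardiomyocyte nuclei. It describes the nuclei of all groups, Input included, as cardiomyocyte nuclei. Input nuclei came from WT hearts and went no further. Myc nuclei came from Nkx2-5 Cre/+; R26RSun1-Myc-Egfp/+ hearts and were captured through their Myc tag by magnet-assisted nuclei immunoprecipitation (MAN-IP), and the labels call them Nkx2-5+. Cre from the Nkx2-5 locus turns on a tagged nuclear envelope protein in cells of that lineage and in their descendants, so the Myc group differs from the others in genotype as well as in enrichment. PCM1 nuclei came from WT hearts after MAN-IP with an antibody to PCM1, a centriolar satellite protein found at the nuclear surface of cardiomyocytes. The paper describes the input as an aliquot of the cushion nuclei, the rest of which went to MAN-IP. Which libraries shared a preparation, and whether a replicate was 1 heart or a pool, was not given in the sources used here.

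The 6 peak lists held between 75336 peaks (Input 2) and 131500 peaks (Input 1), and the most frequent local background in the lists, which follows depth, was 4.38 times as high in Input 1 as in PCM1 2. At that background the weakest called summit was covered by 12 extended reads in Input 1 and by 5 or 6 in the other libraries. A promoter without a peak may therefore hold signal too weak for the depth of that library. Of 12 cardiomyocyte markers, between 9 and 11 had a TSS peak in each library, and Myh6, the alpha myosin heavy chain gene, was at rank percentile 88.8 or above in all 6 libraries. Of 12 Schwann cell and neural crest markers, between 5 and 7 had a TSS peak, and Sox10, S100b, Foxd3 and Cdh19 had none in any library. Of 12 neuron markers, 7 or 8 had one in each library, with Stmn2 and Elavl3 at 0 throughout. Another 6 of the neuron markers had a peak in all 6 libraries, among them Snap25 (66.5 to 91.2), Uchl1 (63.3 to 85.2) and Elavl4 (47.2 to 78.3). Over all protein-coding genes the share with a TSS peak was 59.8% to 66% per library. It was 75.0% to 91.7% for the cardiomyocyte, 41.7% to 58.3% for the Schwann cell and neural crest, and 58.3% to 66.7% for the neuron markers. The neuron share was thus near that of all genes, and the Schwann cell and neural crest share was below it.

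A promoter was scored as open when any part of a peak lay within 1 kb of the gene-level TSS, and its strength was the rank percentile of its strongest peak by -log10 q-value within that library's own list, where 100 is the strongest peak of the library and 0 marks a promoter without a peak. Promoters without a peak are called closed. Clustered protocadherin promoters were open less often than those of other genes, and the openness was unevenly spread along the array. Peaks were found at 21 members in Input 1 and 15 in Input 2, at 23 in each Myc library and at 17 in each PCM1 library. The share of all protein-coding genes with a TSS peak was 66% and 59.8% in the Input libraries, 63.7% and 63.5% in Myc, and 60.2% and 59.9% in PCM1. Members thus reached 26.3% to 40.4%, below the background of their own library in all 6. In these bulk nuclei, fewer nuclei with an open promoter and a less open promoter per nucleus cannot be told apart.

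A total of 13 members (22.8%) had a peak in all 6 libraries, compared with 56.1% of all genes. A peak in at least 1 library was found at 26 members (45.6%, against 68.2% of all genes), which leaves 31 members (54.4%) without any, against a background of 31.8%. The 31 were the 12 alpha genes, 17 of the 22 beta genes, Pcdhac1 and Pcdhgc5. With the strongest 75336 peaks of each library only, 7 members were open in all 6 libraries and 21 in at least 1, while the background shares were 54.9% and 64.8%.

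**Figure D1:**
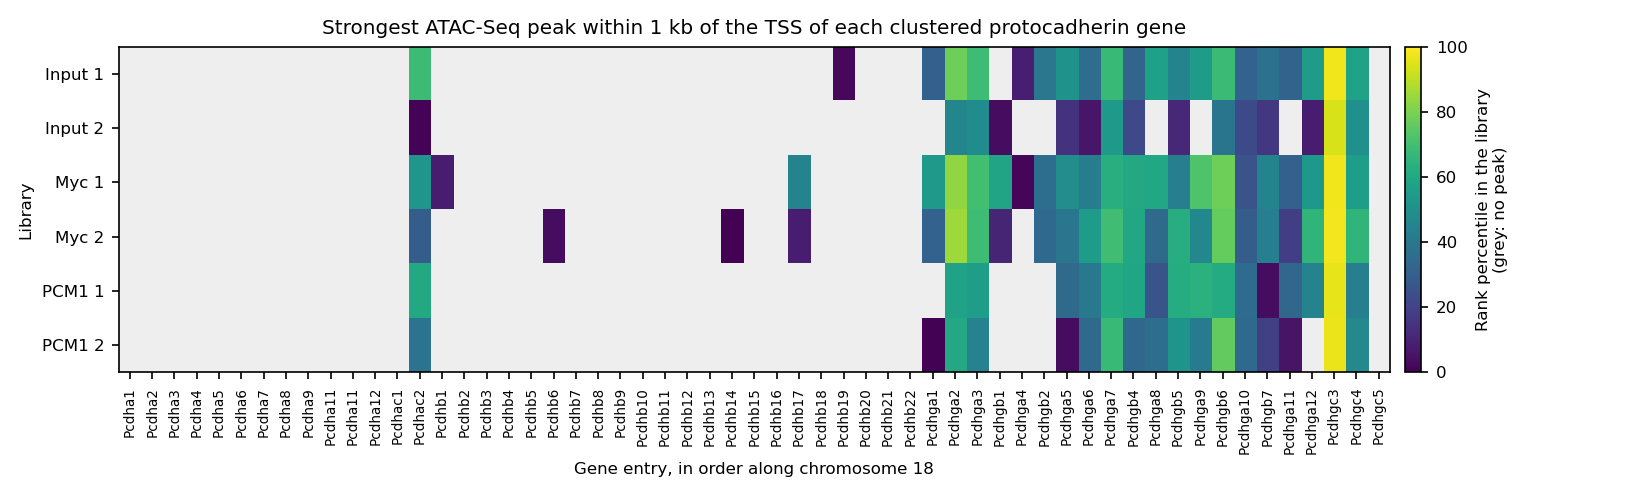
Rank percentile of the strongest peak within 1 kb of the TSS (color) for the 57 clustered protocadherin entries in their order along chromosome 18 (columns; Pcdha11 is the symbol of 2 entries) in the 6 libraries (rows), with grey where no peak was called. All 12 alpha columns are grey, 17 of 22 beta columns are grey, and the gamma columns are filled in most libraries, with Pcdhgc3 between 93.9 and 98.2.

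None of the 12 alpha promoters (Pcdha1 to Pcdha12) had a peak in any library. The absence was not limited to the promoters. From 1 kb before the Pcdha1 TSS to 1 kb before the Pcdhac1 TSS, a segment of 159.8 kb, the 6 lists held 0 summits, whereas the density over all chromosomes without assembly gaps averaged 3.70 summits per 100 kb. The nearest summit of any library was between 123.5 and 169.8 kb from the alpha TSSs. On the upstream side the last summit lay 128.3 kb before the Pcdha1 TSS, and on the downstream side the next belonged to Pcdhac2, so that the interval without a summit spanned 341.8 kb. Whether regions removed as blacklisted by the authors lie in this interval was not tested. Stretches of this kind were uncommon but not unique. Among 8346 consecutive tiles of the same length as the alpha segment that held at least 1 protein-coding TSS, 615 (7.37%) held no summit in any library, and among the 162 tiles with at least 10 such TSSs, 9 (5.56%) held none.

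The beta genes, which code for protocadherins without a constant region, were nearly as closed. The number with a TSS peak was 1 in Input 1, 0 in Input 2, 2 in Myc 1, 3 in Myc 2 and 0 in both PCM1 libraries, of 22. Pcdhb17 had a peak in both Myc libraries and in no other, at percentile 44.8 in Myc 1 and 7.80 in Myc 2, with 16 and 9 extended reads at the summit. Such a pattern, a TSS peak in both Myc libraries alone, was found at 0.273% of all genes, and Pcdhb17 was the only member to show it. No member had a peak in both Input libraries alone or in both PCM1 libraries alone, patterns seen at 0.141% and 0.0273% of all genes. The 4 other beta peaks were each seen in a single library. Pcdhb1 was at percentile 8.12 in Myc 1, Pcdhb6 at 3.19 in Myc 2, Pcdhb14 at 0.702 in Myc 2 and Pcdhb19 at 2.1 in Input 1. These were among the weakest peaks of their lists, with summits covered by 7 to 14 extended reads. A peak in exactly 1 library was found at 2.99% of all genes. With equal numbers of peaks, 1 beta promoter remained open in 1 library, Pcdhb17 in Myc 1 at percentile 21.4.

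Most gamma promoters were open. Each of the 18 gamma A and gamma B promoters had a peak in at least 1 library, against 68.2% of all genes. A peak in all 6 was found at 10 of them, a share near the 56.1% of all genes. With equal numbers of peaks, 17 had a peak in at least 1 library and 5 in all 6, against 64.8% and 54.9% of all genes. Among the 12 gamma A genes, 12 and 7 were open in the Input libraries, 12 and 11 in Myc, and 10 in each PCM1 library. Among the 6 gamma B genes the numbers were 5 and 5, 6 and 6, and 4 and 4. Over all genes the share with a TSS peak was 59.8% to 66% per library. The low value for gamma A was that of Input 2, the library with the fewest peaks, and without Input 2 the number of gamma A and B promoters open in all remaining libraries was 13. Summits stood close to the start sites. All 92 gamma A and B peaks had their summit within 500 bp of the TSS, with a median offset of -2.0 bp, where minus is upstream.

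**Figure D2:**
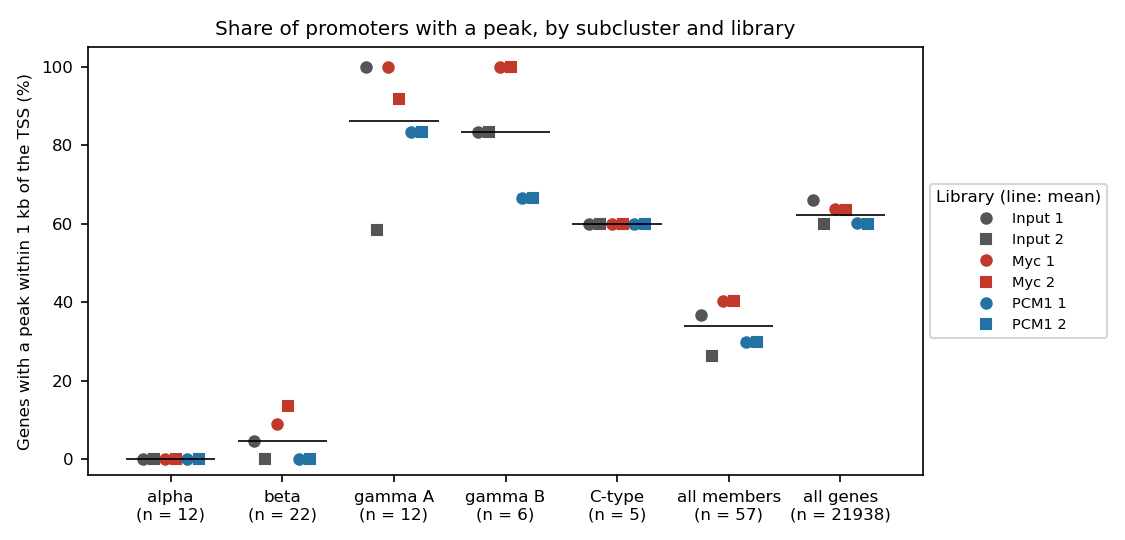
Share of promoters with a peak within 1 kb of the TSS (vertical axis, %) in each subcluster, in all 57 members and in all 21938 protein-coding genes, with a point for each of the 6 libraries and a line at their mean. Alpha is at 0% in all 6 libraries, beta at 0 to 13.6%, gamma A at 58.3 to 100%, gamma B at 66.7 to 100% and C-type at 60.0%.

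Pcdhga2 was the strongest of the gamma A promoters. Its percentile was 77.8 and 46.0 (Input), 83.5 and 85.3 (Myc) and 57.6 and 60.5 (PCM1), with both Myc values above the other 4. Pcdhga7 varied least of the 3 leading gamma A genes, at 67.6 and 54.0 (Input), 62.9 and 69.2 (Myc) and 61.3 and 67.6 (PCM1), and its groups overlapped. Pcdhga3 was at 68.9 and 48.7 (Input), 69.8 and 68.8 (Myc) and 56.0 and 44.4 (PCM1), and Input 1 lay between the Myc values. Among the gamma B genes, Pcdhgb6 led, at 68.0 and 38.9 (Input), 78.0 and 76.3 (Myc) and 61.4 and 75.8 (PCM1). The next gene, Pcdhgb5, was at 45.3 and 11.4 (Input), 42.7 and 62.4 (Myc) and 61.9 and 51.9 (PCM1). Pcdhgb4 was at 32.4 and 22.0 (Input), 60.2 and 59.7 (Myc) and 59.1 and 33.5 (PCM1), and it was the only member for which both Input values were the lowest of the 6. Over the 6 libraries the means were 68.4 ± 16.0 for Pcdhga2, 66.4 ± 14.9 for Pcdhgb6, 63.8 ± 5.68 for Pcdhga7 and 59.4 ± 11.3 for Pcdhga3 (SD, n = 6). Neighbouring means in this order were closer than the SDs. These SDs include differences between libraries, and the genes were not compared within libraries. The means of Pcdhgb5 (45.9 ± 18.8) and Pcdhgb4 (44.5 ± 17.1) were also closer than their SDs.

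Among the remaining gamma A and B promoters, Pcdhga9 had a mean of 46.5 ± 25.5 (SD, n = 6), next to the 45.9 of Pcdhgb5 and the 44.5 of Pcdhgb4. Its percentile was 55.3 and 0 (Input), 72.3 and 46.7 (Myc) and 64.0 and 40.9 (PCM1). The means of the others lay between 1.60 and 37.7. Pcdhga5, Pcdhga6, Pcdhga10 and Pcdhgb7 had a peak in all 6 libraries, with means between 27.4 and 35.7. Of these, Pcdhga10 was the most even, from 22.5 in Input 2 to 34.9 in PCM1 1. Pcdhga8, Pcdhga9 and Pcdhga11 were missing a peak in Input 2 only, and Pcdhga12 in PCM1 2 only. Pcdhga1 had a peak in 4 libraries, with 30.8 and 0 (Input), 53.8 and 31.6 (Myc) and 0 and 0.474 (PCM1). Pcdhgb1 and Pcdhgb2 had a peak in 3 libraries each, and neither had a peak in PCM1. The percentile of Pcdhgb1 was 0 and 3.31 in Input, and 58.6 and 10.3 in Myc. That of Pcdhgb2 was 39.8 and 0 in Input, and 36.1 and 34.3 in Myc. Pcdhga4 was the least open of the 18, with 8.24 in Input 1, 1.36 in Myc 1 and no peak in the other 4 libraries. Position in the array did not order these genes, as the Spearman correlation between place and mean percentile was 0.110 across the 18 genes, which share the same 6 libraries.

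The C-type genes split into 3 open and 2 closed promoters, and the same 3 were open in each library. Pcdhgc3 (chromosome 18, 37806364 to 37841873, mm10) was by far the strongest clustered protocadherin promoter. Its percentile was 97.7 and 93.9 (Input), 97.7 and 98.2 (Myc) and 96.1 and 97.0 (PCM1), a spread of 1.60 (SD, n = 6) around 96.8. The fold enrichment of its summit over the local background was 21.0 and 18.5 (Input), 19.0 and 20.7 (Myc) and 16.0 and 17.3 (PCM1), and the summit lay 13 to 85 bp upstream of the TSS. Pcdhgc3 ranked above 71.0% to 85.1% of all genes with a TSS peak in the same library. It was the only member above the median of those genes, and this held in all 6 libraries.

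Pcdhgc4, which in the nervous system is needed for the survival of certain neurons, was moderately open. Its percentile was 57.5 and 50.2 (Input), 55.6 and 65.6 (Myc) and 42.8 and 47.1 (PCM1), and both PCM1 values were the lowest. More than 1 peak lay within 1 kb of this TSS in 4 libraries, and the strongest summit fell anywhere from 429 bp upstream to 923 bp downstream. Pcdhac2, known for a part in the spacing of serotonergic axons, varied most of the 3, at 68.4 and 0.940 (Input), 52.2 and 29.7 (Myc) and 60.9 and 38.2 (PCM1). The Input replicates were the farthest apart of the 3 replicate pairs, and the summits lay 120 to 570 bp downstream of the TSS. Pcdhac1 and Pcdhgc5 had no peak within 1 kb in any library. For Pcdhgc5 the nearest summit of any library was 3104 bp from the TSS, and for Pcdhac1 it was 53.6 kb away.

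**Figure D3:**
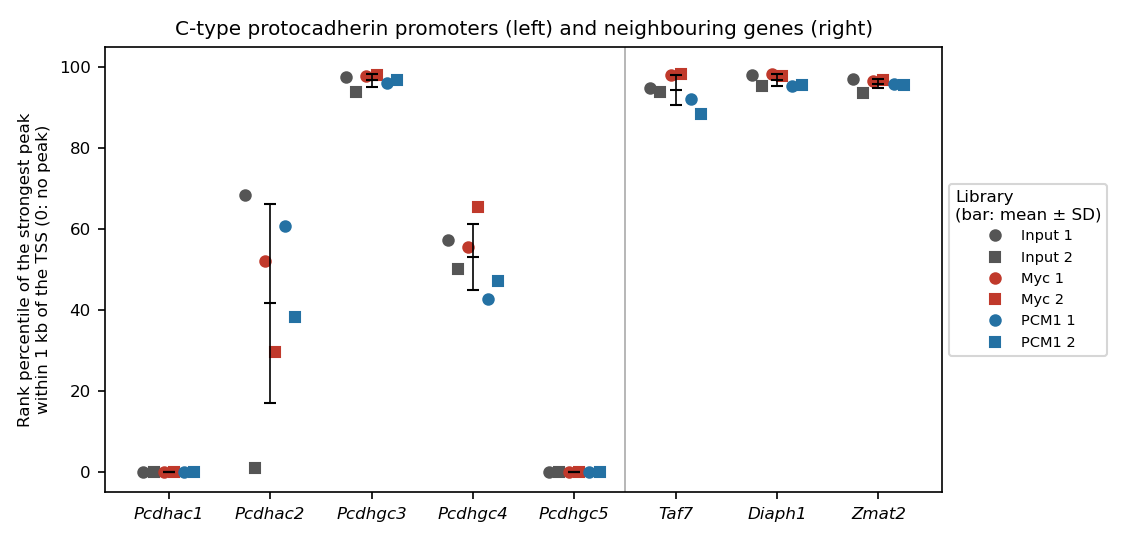
Rank percentile of the strongest peak within 1 kb of the TSS (vertical axis, 0 without a peak) of the 5 C-type protocadherins, left of the grey line, and of the neighbouring genes Taf7, Diaph1 and Zmat2, right of it, with a point for each of the 6 libraries and bars for mean ± SD. Pcdhgc3 sits at 93.9 to 98.2, in the range of its neighbours, while Pcdhac1 and Pcdhgc5 are at 0 in all 6 libraries.

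Differences within the C-type were compared library by library. Pcdhgc3 exceeded Pcdhgc4 by 43.6 ± 7.32 percentile points and Pcdhgc5 by 96.8 ± 1.60, and Pcdhac2 exceeded Pcdhac1 by 41.7 ± 24.5 (SD, n = 6). The pairs were chosen with the earlier peak calls known, and Pcdhac1 and Pcdhgc5 were at 0 in all 6 libraries, so the direction of the differences was fixed by the choice and they are given as descriptions without a test. The difference between Pcdhgc3 and Pcdhgc4 lay between 32.6 and 53.3 points over the 6 libraries. For Pcdhac2 against Pcdhac1 the difference in Input 2 was 0.940 only.

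Between groups, the Myc libraries held the most open members. Both libraries of the group had a peak at 21 members in Myc, 16 in PCM1 and 14 in Input, with background shares of 61.8%, 57.6% and 59.6% of all genes. With equal numbers of peaks the libraries overlapped, at 12 and 15 members for Input, 20 and 16 for Myc and 16 and 14 for PCM1. The background was then 60.7% and 59.8%, 60.5% and 60.1%, and 59.2% and 59% of all genes. A peak in both Myc libraries and in neither PCM1 library was found at Pcdhb17, Pcdhgb1 and Pcdhgb2 (3 members, 5.26%), against 1.91% of all genes, and the opposite pattern at 0 members, against 0.146%. With equal numbers of peaks, Pcdhb17 and Pcdhgb1 had no peak in Myc 2, and the pattern was found at Pcdhga1 and Pcdhgb2 (3.51%, against 1.11% of all genes) and the opposite at Pcdhga10 (1.75%, against 0.442%). With 2 libraries in each group, an exact permutation test of group against group cannot go below 0.333, so no test was run.

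Both Myc percentiles lay above the 4 other libraries at 9 members (15.8%), which were Pcdhb17, Pcdhga1, Pcdhga2, Pcdhgb1, Pcdhga6, Pcdhgb4, Pcdhgb6, Pcdhgb7 and Pcdhgc3. The same was true of 19.2% of all genes, so this share was near the background. With equal numbers of peaks it was 6 members (10.5%), against 21.6% of all genes, and Pcdhga1, Pcdhga2, Pcdhgb7 and Pcdhgc3 were in both sets. Promoters closed in all libraries cannot be counted here. With equal numbers, 36.8% of members had a peak in at least 1 library, against 64.8% of all genes, so these shares are not alike in base. Both PCM1 values were the highest at Pcdhga10 alone (background 1.29%). With equal numbers they were the highest at Pcdhga7, Pcdhgb5 and Pcdhga10, against 5.31% of all genes. Both Input values were the highest at 0 members with either number of peaks (background 3.26%, and 5.01% with equal numbers), as both Myc values were the lowest at 0 (background 2.4% and 5.58%). Both Input values were the lowest at Pcdhgb4 (background 0.834%), and with equal numbers at 5 members, Pcdhga6, Pcdhgb4, Pcdhgb5, Pcdhga9 and Pcdhgb6 (8.77%, against 4.9% of all genes). Both PCM1 values were the lowest at Pcdhgc4 alone (background 20.9%), and at 0 members with equal numbers (background 18.2%), where promoters closed in all libraries count as not lowest.

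Marker values of other cell types also differed between libraries, as did the median percentile over all genes with a TSS peak, between 86.6 and 92.5. The percentiles of the 18 gamma A and B promoters summed to 794 and 292 (Input), 925 and 830 (Myc) and 638 and 507 (PCM1). Those of 12 fibroblast markers summed to 715 and 475, 652 and 707, and 465 and 416, with 11 and 8, 11 and 11, and 8 and 7 of them open. Per library 58.3% to 91.7% of the fibroblast markers were open, against 59.8% to 66% of all genes. The percentiles of 12 endothelial markers summed to 710 and 439, 639 and 697, and 445 and 496, while 12 cardiomyocyte markers summed to 974 and 888, 776 and 837, and 876 and 845. The markers without a peak in any library were Mfap5 of the fibroblast, Vwf of the endothelial and Tnni3 of the cardiomyocyte list. The part of cell composition in the differences between groups was not tested.

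Where clustered protocadherin promoters were open, their peaks were weak by the standard of promoters. The median percentile of the members with a peak was 51.4 and 22.0 (Input), 53.3 and 42.9 (Myc) and 56.0 and 38.2 (PCM1), whereas that of all genes with a TSS peak was 92.0 and 87.5, 92.5 and 92.5, and 87.0 and 86.6. The median length of the members' peaks was 350 to 637 bp, against 671.5 to 835 bp over all genes. Genes next to the array and inside it had strong promoters. Taf7, a subunit of the general transcription factor TFIID that lies between the beta and gamma clusters, was at 88.6 to 98.3, Zmat2 upstream of the array at 93.8 to 97.0, and Diaph1, an actin-nucleating formin downstream of it, at 95.3 to 98.4. Slc25a2, a mitochondrial carrier gene next to Taf7, and the predicted genes Gm42416, Gm37013 and Gm37388, which start within the alpha cluster, had no peak.

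Beyond the members' promoters the array held a small set of peaks common to all libraries. When overlapping peaks of the 6 lists were merged, the locus from Pcdha1 to the last gamma constant exon held 52 regions, of which 27 lay within 1 kb of a member's TSS, 20 were present in all 6 libraries and 12 in 1 only. Of the 20, 13 were at a member's promoter and 7 lay farther than 1 kb from any member's TSS. The most open of these 7 were the Taf7 promoter and a region in an intron of the gamma genes, 16.1 kb after the Pcdhgc5 TSS (chromosome 18, 37835243 to 37836241), at percentile 94.7 and 92.9 (Input), 86.9 and 92.2 (Myc) and 92.6 and 94.7 (PCM1). Another stood 5.90 kb before the Pcdhga1 TSS, in front of the whole gamma cluster (37655409 to 37656095), at 86.3 and 77.0, 85.4 and 88.0, and 83.2 and 86.3. This region was above all 18 gamma A and B promoters in each of the 6 libraries.

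The alpha cluster, closed at its variable promoters, had peaks in its downstream part. Introns of the alpha genes held a region 28.9 kb after the Pcdhac2 TSS (37172204 to 37172655), at 78.7 and 49.1 (Input), 75.6 and 62.5 (Myc) and 60.5 and 42.1 (PCM1). A further region 35.0 kb after the same TSS (37178153 to 37178802) was at 57.8 and 41.1, 55.9 and 54.3, and 7.32 and 33.7. Between the alpha and beta clusters, a region 46.6 kb before the Pcdhb1 TSS (37218038 to 37218583) was at 79.4 and 20.5 in Input and 78.6 and 79.4 in Myc, and had no peak in either PCM1 library. Pcdhga12 was flanked by 2 regions present in all 6 libraries. The region 3.91 kb before its TSS was at 70.2 and 51.1 (Input), 65.0 and 68.9 (Myc) and 35.0 and 45.6 (PCM1). The other, at 31.9 to 73.2, lay 2.70 kb after the TSS in an exon of Pcdhga12. Only protein-coding start sites were used, so whether the region before the TSS is the promoter of another annotated gene was not tested.

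Summit density followed the same division. It was 0 per 100 kb over the alpha variable exons, 3.21 ± 0.414 over the alpha C-type and constant exons, 1.09 ± 0.987 between alpha and beta, 0.384 ± 0.485 over beta, 1.47 between beta and gamma, 13.9 ± 2.37 over the gamma A and B variable exons, and 19.6 ± 4.03 over the gamma C-type and constant exons (SD, n = 6). The whole locus came to 3.76 ± 0.667, close to the 3.70 of all chromosomes.

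**Figure D4:**
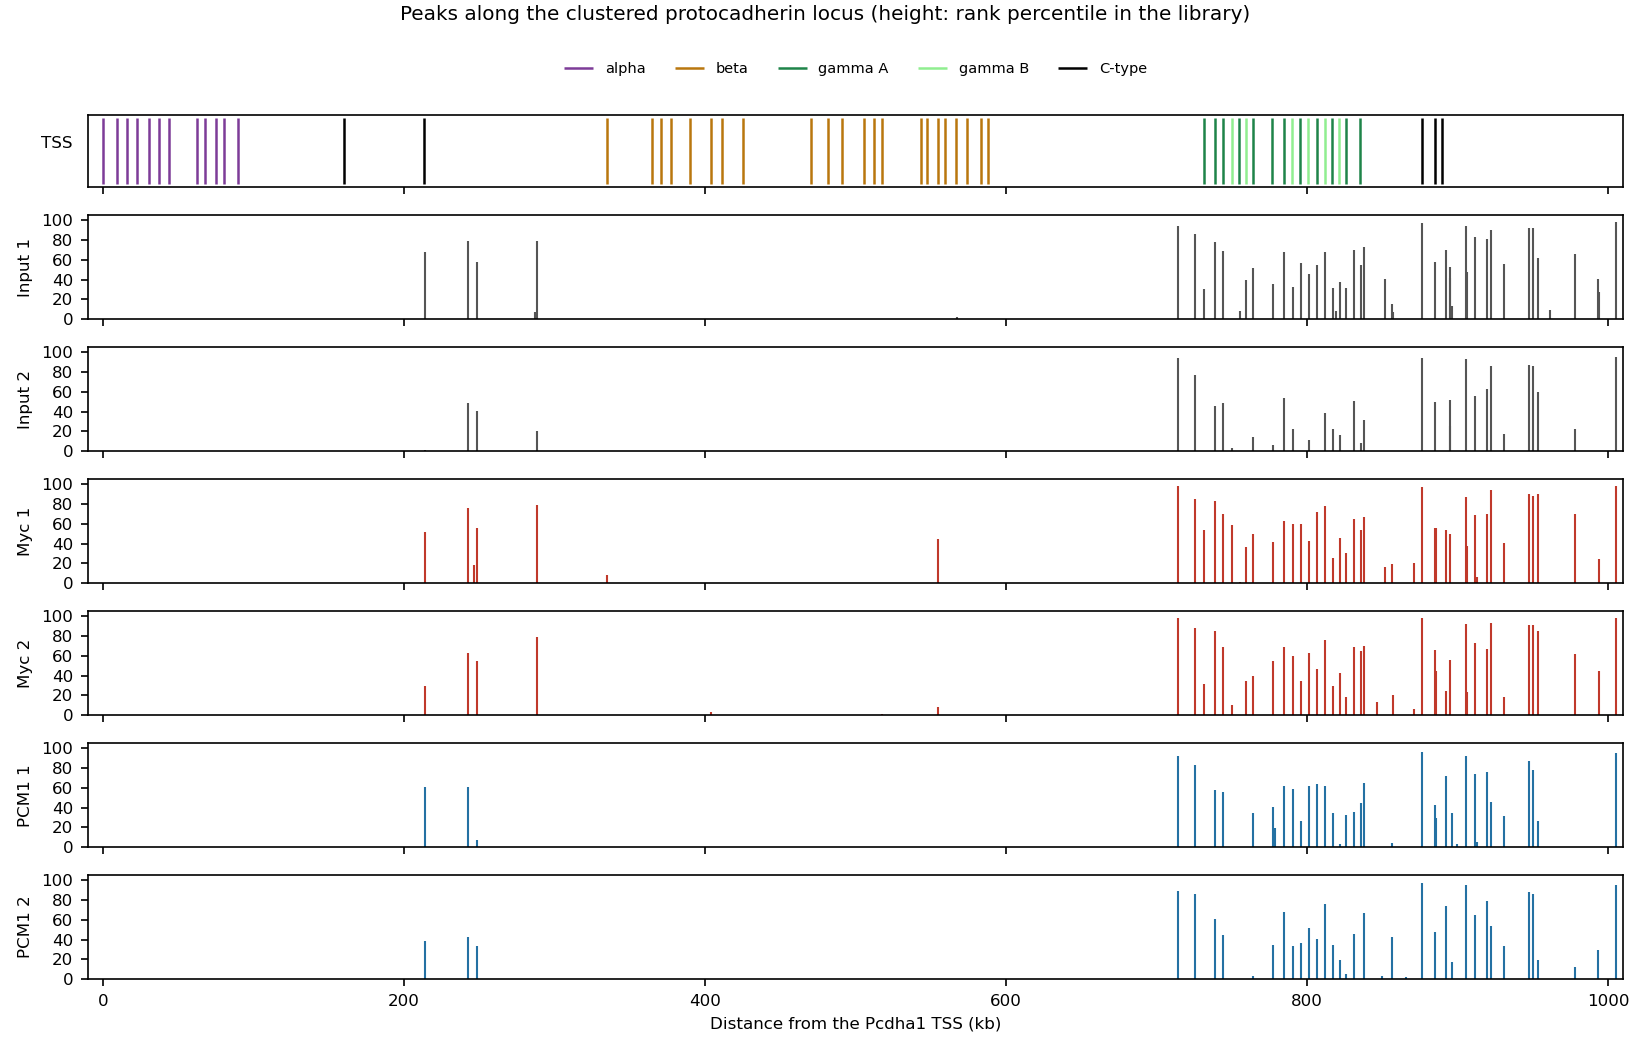
Peaks of the 6 libraries along the clustered protocadherin locus (horizontal axis, distance from the Pcdha1 TSS in kb, up to the Diaph1 promoter), with line height giving the rank percentile in the library, and the TSSs of the 57 members in the top row. The alpha variable exons hold no summit, the beta cluster 0 to 3 per library, and the gamma A and B variable exons 14 to 23.

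The promoter sequences were compared with openness using features that the choice of members did not involve. CpG observed over expected, the frequency of the CG dinucleotide relative to that expected from base composition, was counted 500 bp to either side of the TSS in GRCm38 (mm10). It was over 0.6 at 46.0% of all protein-coding genes, and 97.3% of those had a TSS peak in at least 1 library. Of the members, 22 were over 0.6. The 11 of them that were gamma or C-type genes all had a peak in at least 1 library, and the other 11 were alpha genes without a peak in any. No beta gene was over 0.6. The 8 gamma A and 2 gamma B genes that were not over 0.6 also all had a peak in at least 1 library. So did 5 of the 22 beta genes, but neither the 1 alpha gene nor the 2 C-type genes. Of the 35 members not over 0.6, 4 had a peak in all 6 libraries, against 26.9% of all such genes. The alpha median was 0.684, above that of gamma A (0.588) and beta (0.378), so closed alpha and closed beta promoters differed in CpG content.

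Of the 22 members over 0.6, 19 had a GC share under 50%. The others were Pcdhgc3 (58.0%), Pcdhac2 (57.7%) and Pcdhgc4 (50.4%). All alpha promoters had a GC share between 42.5% and 46.7%, and the median over all genes was 54.7%. Among the 343 genes with CpG observed over expected above 0.6 and a GC share under 50%, of which 19 were members, 85.1% had a TSS peak in at least 1 library. Repeated sequence varied within and between the subclusters, and its part in the calls was not tested. The share of 31-base stretches within 1 kb of the TSS that recur elsewhere in the genome had a median of 11.5% for alpha (7.66% to 26.8%), 0.482% for beta (0 to 22.0%), 2.61% for gamma A (0.101% to 11.9%), 11.1% for gamma B (0 to 19.2%) and 0 for the C-type (0 to 0.812%). Over all 57 members, the Spearman correlation between CpG observed over expected and mean percentile was 0.336, with the 31 closed members tied at 0.

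**Figure D5:**
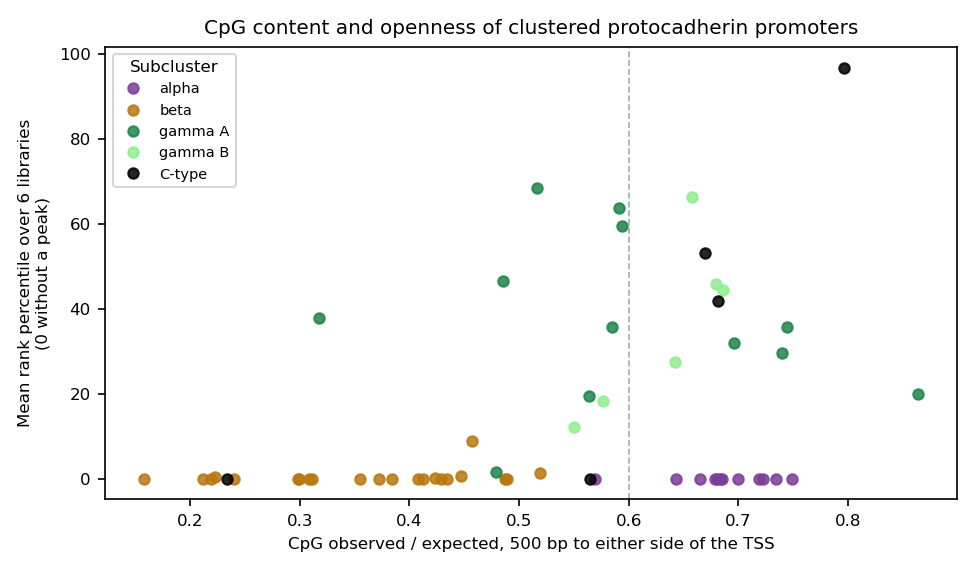
CpG observed over expected within 500 bp of the TSS (horizontal axis) against the mean rank percentile over 6 libraries (vertical axis, 0 without a peak) for the 57 members, colored by subcluster, with a dashed line at 0.6. Of the 22 members right of the line, the 11 alpha genes are at 0 and the 11 gamma and C-type genes are above 0.

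A simplified CTCF core motif, searched on either strand within 1 kb of the TSS, was found at 7 of 12 alpha, 0 of 22 beta, 1 of 12 gamma A, 0 of 6 gamma B and 1 of 5 C-type promoters, and at 13.3% of all genes. The gamma A gene was Pcdhga2 and the C-type gene Pcdhac2, both open in all 6 libraries, while the 7 alpha genes were closed in all 6. The core was thus found at 7 of the 31 members closed in all libraries (22.6%) and at 2 of the 13 open in all 6 (15.4%). Letters that match are no measure of binding, and these promoters may hold sites with other letters.

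Non-clustered relatives and regulators of the clusters were open more often than the members. All 12 non-clustered protocadherins, which lie as single genes elsewhere in the genome, had a TSS peak in at least 1 library, and 9 of 12 had a peak in all 6. Of these, Pcdh17 was the strongest at 86.7 to 95.3, while Pcdh15 had a peak in Myc 1 alone, at 14.3. The classical and related cadherins named Cdh and a number were open in all 6 libraries at 12 of 23. Of all protein-coding genes, 68.2% had a peak in at least 1 library and 56.1% in all 6, so the cadherins were near the background. Among 16 regulators of the clusters, 13 had a TSS peak in all 6 libraries, including Ctcf (95.3 to 98.1), the cohesin genes Rad21 (89.7 to 96.6) and Smc3 (91.6 to 99.2), and Smchd1, a chromatin protein that keeps these clusters silent (97.1 to 98.4). Dnmt1 and Stag1 had no peak near their gene-level TSS in any library. As other tandem families, the olfactory receptors were open in 0.264% to 1.41% of 1135 genes and the Hox genes in 20.5% to 53.8% of 39. The share of clustered protocadherins, 26.3% to 40.4%, lay between the olfactory receptors and the non-clustered protocadherins in each library.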

How the data were processed

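Peak lists of 6 Omni-ATAC-Seq libraries were used. Per the labels and the study's methods, the authors mapped reads to mm10 with Bowtie2 2.3.3.1, marked duplicates with picard-tools 2.2.1, removed blacklisted regions, shifted alignments for Tn5 and called peaks per library with MACS2 2.1.0.20160309 at a q-value threshold of 0.05. In the authors' deposited lists the fold is the ratio of summit pileup to local background after 1 is added to each. The deposited -log10 p-value and -log10 q-value belong to the summit. The deposited score is the -log10 q-value times 10 and was not needed. No read counts were used, and depth was inferred from fold and p-value, which together give the pileup and background of a summit.

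Peaks were matched to gene-level TSSs of GENCODE M21 with Python 3.11.15, numpy 2.4.6, pandas 2.3.3 and scipy 1.17.1. Plots were drawn with matplotlib 3.10.9. The window was 1 kb. Ranks were taken within each list. Sequence features came from the GRCm38 genome, and no promoter sequence is printed. The matching and the pileup were tested on simulated data. A sign-flip permutation test planned for 3 pairs of C-type genes is not reported, since the choice of the pairs fixed its outcome. Named genes were the C-type, the 3 members of the beta, gamma A and gamma B subclusters with the highest mean percentile, members with a peak in both libraries of 1 group alone, and the protein-coding neighbours. No alpha gene could be ranked. Further members are named where a count was small, after their values were seen. The members and gene lists were chosen with earlier results of these data known. Alternatives were windows of 200 bp and 2 kb, the summit in place of the peak, a q-value threshold of 0.01, equal numbers of peaks, any transcript start, ranks by fold and each library left out.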

Additional observations from a re-analysis of the deposited data

How the results depend on the processing

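The absence of peaks at the 12 alpha promoters, Pcdhac1 and Pcdhgc5 held under each alternative, and each gamma A and B promoter kept a peak in at least 1 library except with equal numbers of peaks, where 17 of 18 did. With equal numbers, the members open in all 6 libraries fell from 13 to 7, the gamma A and B promoters among them from 10 to 5, the mean share of open members from 33.9% to 27.2%, beta from 4.55% to 0.758%, gamma A from 86.1% to 69.4%, gamma B from 83.3% to 69.4% and C-type from 60.0% to 56.7%. Summits per 100 kb moved to 2.70 over the alpha C-type and constant exons, 0.0640 over beta and 10.4 over the gamma A and B variable exons. These alternatives keep fewer peaks by construction. Pcdhac2 minus Pcdhac1 became 27.9 percentile points, and with peaks within 200 bp of the TSS it was 33.0 and the C-type share was 50%. With 1 library left out, the differences ranged from 41.7 to 45.8 for Pcdhgc3 minus Pcdhgc4, from 96.5 to 97.3 for Pcdhgc3 minus Pcdhgc5 and from 36.4 to 49.9 for Pcdhac2 minus Pcdhac1, and the gamma B share from 80.0% to 86.7%. Pcdhgc3 minus Pcdhgc4 stayed positive under each alternative. It was the only difference whose sign could change, as Pcdhgc5 and Pcdhac1 had no peak throughout. No paired analysis was possible because the sources do not say which libraries shared a preparation, nor that a replicate number marks a shared batch. The comparisons of groups are counts that come from no test.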
